A study of Mus musculus with 19 samples.

Results

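OT-I cells, the CD8 T cells of a mouse line with a transgenic receptor for an ovalbumin peptide, were compared after transfer into irradiated or unirradiated B6 mice. The comparison took 12 of the 19 arrays of the series, 8 from irradiated hosts with titles that give day 5 and 4 from unirradiated hosts. They were picked by those labels and by no measured value. The descriptions of both groups give day 6 as the day of sorting, so host state differed while the sorting day did not, and it is the one comparison of the series with that property. All cells came from lymph node or spleen of B6 hosts. The labels give no age, sex, radiation dose or number of transferred cells, and do not say whether arrays stand for separate animals. The p-values therefore measure only the spread between these samples, which may be technical. For day-5 arrays 1 and 2 the description leaves the cell type unnamed. The other 7 arrays, of irradiated hosts at day 40 (n = 4) and day 115 (n = 3), helped to estimate the spread.

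Irradiation empties the lymphoid organs of most lymphocytes. Naive T cells placed in such a host divide without their foreign antigen, driven by self peptides on MHC and by interleukin 7 and related cytokines that fewer cells now consume. In a host with a full T cell pool the same cells mostly rest. Division of this kind is known to give CD8 T cells some memory-like features.

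At day 5, the mitosis genes Top2a, Cdk1, Ccnb2 and Stmn1 (4 of 44 tested), the calcium-binding protein gene S100a6 and the chemokine receptor gene Cxcr3 were higher, and the actin-binding protein gene Cnn3, the receptor-induced factor gene Egr1 and the interleukin 7 receptor gene Il7r were lower. Of 8695 tested probe sets, 69 changed, which is 0.794%, with 36 higher and 33 lower at day 5 (limma, Benjamini-Hochberg adjusted p under 0.05 on log2 of signal + 16). A log2 difference of 1 is a doubling of signal + 16, which understates the change of dim probe sets. In 61 of the 69 the signals of the 2 groups did not overlap. A call favours such groups, so this count adds no support, and it was not taken over all tested probe sets. At least 2-fold changes numbered 14 upward and 9 downward. Of the changed probe sets, 55 carry 1 gene symbol, 28 higher and 27 lower. Counted by its brightest probe set, a gene was higher in 26 of 6409 cases, or 0.406%, and lower in 24, or 0.374%.

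The arrays fell into 2 clusters by their correlation, and the clusters cut the day-5 group. Day-5 arrays 4 to 8 clustered with the 4 unirradiated arrays and correlated with them at a median of 0.970. Day-5 arrays 1 to 3 stood in the other cluster and correlated with the unirradiated arrays at a median of 0.864 and with day-5 arrays 4 to 8 at a median of 0.880. The main results are therefore also given within the cluster, for day-5 arrays 4 to 8 against the 4 unirradiated arrays. That comparison called 131 probe sets, or 1.51%, with 79 higher and 52 lower. By genes, 57 were higher, or 0.889%, and 36 lower, or 0.562%. The 2 fits shared 54 calls, 78.3% of the 69 and 41.2% of the 131. All 69 kept their sign within the cluster, which is no separate check, since the main fit holds the same arrays. The 15 calls not made there were Cdk1, Ccnb2, Cdc45, Cdkn2c, Ctsl, Egr2, Itgav, Bbs9, F2rl3, Mfhas1 and 5 probe sets without a single symbol.

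The calls also depend on single control arrays. Without unirradiated array 4, 13 probe sets were called, all of them among the 69. Without unirradiated arrays 1, 2 or 3 there were 23, 38 and 25 calls, and without one day-5 array between 34 (array 1 left out) and 80 (array 7 left out). The 69 kept their sign in each of these 12 fits, which is no separate check, since each fit holds all arrays but 1. The 10 probe sets called in all 12 were those of S100a6, Drc1, Cxcr3, Map3k8, Frmd6, Cd9, Rflnb, Nrip1, Cnn3 and 1 without a single symbol. Any other call over all arrays was lost without at least 1 array, most often unirradiated array 4 (56 of the 69).

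The cells carried the transcripts of CD8 T cells. Cd8a, the co-receptor chain, had signals of 2888, 2418, 2316 and 2510 in unirradiated hosts. At day 5 it had 1851 to 3906, with a median of 3269. Day-5 arrays 1 to 3 (1851 to 2161) lay below every unirradiated array and arrays 4 to 8 (3238 to 3906) above every one. Cd8b1, another CD8 chain, was instead higher in arrays 1 to 3 (5398 to 6070) than in arrays 4 to 8 (2707 to 4461). It had 2771 to 3468 in unirradiated hosts. Cd3e, a chain of the receptor complex, had 277 to 291 against 218 to 282. No tested member of the 11 lists of cell type markers changed between the groups. Summed signals were 8404 to 10168 in unirradiated hosts and 9164 to 14457 at day 5 for 7 CD8 T cell genes. For 17 B cell genes they were 1539 to 1839 against 1819 to 3542. The 3 day-5 arrays of the other cluster gave the high B cell sums; arrays 4 to 8 lay between 1819 and 1992. Ighm, the heavy chain of IgM, did not overlap (455 to 545 against 634 to 1582), with a log2 difference of 0.86 and an adjusted p of 0.172. Summed signals of 7 erythroid genes were 344 to 490 against 380 to 2709, and the alpha globin gene Hba-a1 stood at 92.7 to 186 against 128 to 2337. These sums overlapped, as did the remaining ones. For 16 myeloid genes they were 2788 to 3606 against 1904 to 3541, and for 13 of the neutrophil lineage 570.4 to 655 against 536 to 883. Dendritic cell genes (10) had 840.2 to 987 against 817 to 1344, and genes of stroma and vessels (16) 941 to 1091 against 911 to 1125. Genes of CD4 and regulatory T cells (8) had 411 to 452 against 400.4 to 502. NK cell genes (6) had 295 to 381 against 328 to 531, and plasma cell genes (5) 164 to 187 against 172 to 277. For 3 megakaryocyte genes, 1 of them tested, the sum was 237 to 300.4 against 211 to 336. Each of these sums holds every listed gene with a probe set of its own, also those under the filter. Within the cluster 1 marker was called, Vcam1 of the myeloid list, with 33.7 to 54.9 in unirradiated hosts and 86.6 to 248 in day-5 arrays 4 to 8 (log2 difference 1.41, adjusted p = 0.0141), while day-5 arrays 1 to 3 stood at 37.8 to 55.1. Another Vcam1 probe set of like signal in unirradiated hosts gave -0.01 within the cluster (adjusted p = 0.958). The part of other cells in the results below was not tested. In such bulk samples, fewer cells that express a gene and less RNA of it per cell cannot be told apart.

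The promoters of the division genes were searched for short sequences that such genes are known to carry. NF-Y binds the CCAAT box, and the sequence TTTGAA is the core of the cell cycle genes homology region, through which repressor and activator complexes time expression to the later cycle. Below are the 150 bases upstream of the RefSeq gene start (build GRCm38.p6, read 5′ to 3′ on the minus strand, where all 3 genes lie) of Top2a (chr11:99024190-99024339), Cdk1 (chr10:69352913-69353062) and Ccnb2 (chr9:70421555-70421704), shown because each was called without overlap by the brightest probe set of the gene, the only such genes of the mitosis list. Capitals mark CCAAT or its reverse complement ATTGG, and TTTGAA or its reverse complement TTCAAA.
Top2a: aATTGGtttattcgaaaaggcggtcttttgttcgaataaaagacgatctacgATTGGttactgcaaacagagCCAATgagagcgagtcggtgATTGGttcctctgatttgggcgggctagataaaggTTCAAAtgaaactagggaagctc
Cdk1: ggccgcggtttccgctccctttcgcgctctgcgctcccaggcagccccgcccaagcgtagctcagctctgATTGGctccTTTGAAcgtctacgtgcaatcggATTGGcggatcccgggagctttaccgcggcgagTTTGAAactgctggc
Ccnb2: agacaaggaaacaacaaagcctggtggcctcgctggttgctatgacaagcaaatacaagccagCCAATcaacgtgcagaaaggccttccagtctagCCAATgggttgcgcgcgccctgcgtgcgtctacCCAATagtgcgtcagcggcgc
The Top2a stretch holds 4 CCAAT boxes and 1 TTTGAA, that of Cdk1 2 of each, and that of Ccnb2 3 CCAAT boxes and no TTTGAA. Searched on both strands over 250 bases upstream, CCAAT occurred in 33.9% of 32841 promoter windows, in 75.4% of the 57 windows of mitosis genes and in 53.03% of the 66 windows of replication genes. TTTGAA occurred in 15.99% of all windows, 35.1% of the mitosis windows and 12.1% of the replication windows. TTCCCGC or TTGGCGC, forms of the E2F site of replication genes, occurred in 5.61% of all windows, 14.0% of the mitosis windows and 28.8% of the replication windows. TTGGCGC can overlap the CCAAT complement ATTGG. Of the 10 windows of replication or mitosis genes called higher in either fit, 10 held CCAAT, 6 TTTGAA and 2 an E2F form. These matches describe letters, not bound sites.

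Of 44 tested genes of mitosis, 36 had a higher value at day 5 and the median log2 difference was 0.42, against 0.03 over all 6409 genes, of which 3684 were higher. The 4 that passed the test, Top2a, Cdk1, Ccnb2 and Stmn1, were all higher. Top2a encodes the topoisomerase that untangles sister chromatids. Its signals were 34.9, 47.1, 37.6 and 32.03 in unirradiated hosts, and the lowest, median and highest day-5 arrays had 51.6, 176 and 635. The groups did not overlap, with the unirradiated arrays low and near the filter level of 26.4 and the day-5 arrays spread over more than a factor of 10. The log2 difference was 1.84 ± 0.39 (SE, adjusted p = 0.0348), and 2.40 within the cluster (adjusted p = 0.00610). Cdk1, the kinase that starts mitosis, had 61.9, 69.7, 49.0 and 48.8 against 86.2, 186 and 333, again without overlap. It rose by 1.41 ± 0.28 (adjusted p = 0.0254), and within the cluster the difference of 1.53 had an adjusted p of 0.0616. Ccnb2, a cyclin that pairs with Cdk1, had 84.5, 117, 76.3 and 69.1 against 118, 203 and 297. The lowest day-5 array lay just above unirradiated array 2, and the difference was 1.03 ± 0.20 (adjusted p = 0.0211), or 0.89 within the cluster (adjusted p = 0.0606). Stmn1, which destabilises microtubules, had 171, 341, 126 and 107 against 242, 861 and 1320.5. Unirradiated array 2 lay above the lowest pair of day-5 arrays, so the groups overlapped. The difference was 1.94 ± 0.40 (adjusted p = 0.0271), or 2.38 within the cluster (adjusted p = 0.00438), while a dimmer Stmn1 probe set near the filter level gave 0.00 (adjusted p = 0.993).

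With 1 array left out, the highest adjusted p was 0.161 for Top2a and Stmn1 and 0.129 for Cdk1 and Ccnb2, each without unirradiated array 4. Plk1, a kinase of spindle assembly, was called by its dimmest probe set (0.39 ± 0.09, adjusted p = 0.0378), while its brightest gave 0.30 (adjusted p = 0.302). Within the cluster, 40 of the 44 mitosis genes were higher, 5 were called and the median was 0.44 against -0.01 over all genes. Beside Top2a and Stmn1 these were Mki67, Cks2 and Hmgb2, a chromatin protein of dividing cells (1.06, adjusted p = 0.00743). Mki67, the gene of the Ki-67 antigen, had 17.4, 32.8, 15.6 and 17.6 in unirradiated hosts and 32.5, 71.2 and 386 at day 5. Its difference was 1.62 ± 0.38 (adjusted p = 0.0508), and 2.01 within the cluster (adjusted p = 0.0477), while another Mki67 probe set gave 0.11 and 0.06 (adjusted p = 0.521 and 0.706). Cks2, a subunit that binds Cdk1, had 366 to 767 in day-5 arrays 4 to 8, 520.5 in array 1, but 74.0 and 73.4 in arrays 2 and 3, below the unirradiated values of 149.6 to 277. It rose within the cluster by 1.48 (adjusted p = 0.00924).

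Levels of division transcripts varied among the day-5 arrays. Day-5 arrays 4, 5 and 6 had Top2a at 635, 322 and 220.5 and Cdk1 at 329, 333 and 258, while arrays 7 and 8 had Top2a at 150.1 and 193 and Cdk1 at 86.2 and 104. The order was not the same for each gene. Arrays 2 and 3 were the lowest in Top2a, at 51.6 and 72.1, arrays 7 and 8 in Cdk1 and Ccnb2, and array 1 was the highest in Ccnb2. In unirradiated hosts array 2 was the highest in Mki67, Stmn1 and Ccnb2. The correlation of day-5 arrays 7 and 8 with each other was 0.994, the highest among day-5 arrays 4 to 8. That of arrays 2 and 3 was 0.991, the highest among day-5 arrays 1 to 3.

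**Figure D1:**
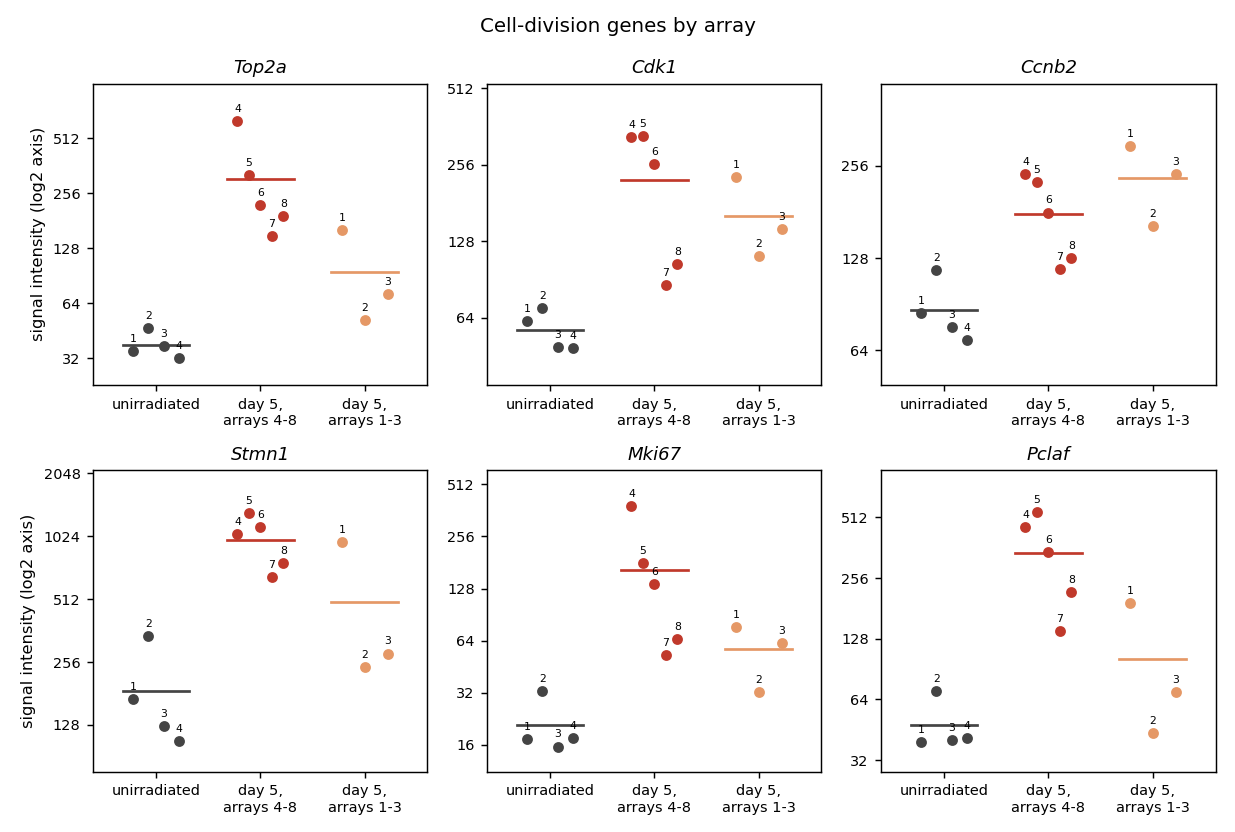
Signal intensity (log2 axis) of 6 division genes in each array, with the array number above each point and a line at the mean of unirradiated hosts (n = 4), day-5 arrays 4 to 8 (n = 5) and day-5 arrays 1 to 3 (n = 3). Every day-5 array of Top2a, Cdk1 and Ccnb2 lies above every unirradiated array, while Stmn1, Mki67 and Pclaf overlap through unirradiated array 2 and the low day-5 arrays 2 and 3.

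DNA replication genes were higher in 43 of 50 cases with a median of 0.37, and 1 was called. Cdc45, part of the replicative helicase, had 40.9, 43.5, 40.3 and 36.8 against 45.6, 61.0 and 72.2, without overlap. Its difference was 0.41 ± 0.09 (adjusted p = 0.0348), or 0.33 within the cluster (adjusted p = 0.0959), and without unirradiated array 4 its adjusted p was 0.184. Within the cluster 47 of the 50 were higher, the median was 0.32, and Pclaf, Gmnn and Pcna were called. Pclaf, which binds the sliding clamp of the replication fork, had 39.2, 70.4, 40.3 and 41.0 in unirradiated hosts. It had 139 to 547 in day-5 arrays 4 to 8 and 192, 43.8 and 69.7 in arrays 1 to 3. The difference was 2.37 within the cluster (adjusted p = 0.00681) and 1.74 over all arrays (adjusted p = 0.0721). Gmnn, the licensing inhibitor geminin, and Pcna, the clamp itself, rose within the cluster by 1.17 and 0.76 (adjusted p = 0.0278 and 0.0391). Their values over all arrays were 0.78 and 0.44. Mcm5, a subunit of the MCM helicase, had 88.5 to 106 in unirradiated hosts and 138 to 515 at day 5 without overlap, and its difference of 1.14 had an adjusted p of 0.0629. Another Mcm5 probe set of like signal in unirradiated hosts gave 0.13 (adjusted p = 0.592).

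Of 24 regulators of G1, the phase in which a cell commits to division, 2 were called, both higher, with a median of 0.06. Cdk4, the kinase partner of D cyclins, had 307, 317, 207 and 254 against 380.3, 489 and 605, without overlap. Its difference was 0.78 ± 0.18 (adjusted p = 0.0455), or 0.69 within the cluster (adjusted p = 0.0478). Cdkn2c, which inhibits Cdk4 and Cdk6, rose by 0.44 ± 0.10 (adjusted p = 0.0447), with 43.4 to 63.9 against 64.1 to 101. Ccnd3, the D-type cyclin most used by lymphocytes, rose within the cluster by 0.60 (adjusted p = 0.0185), from 416 to 440.1 up to 562 to 739. Myc, a driver of cell growth, had 27.5 to 73.2 against 34.8 to 152 and differed by 0.34 (adjusted p = 0.612). Tcf19, outside the lists, had 36.0, 51.5, 42.1 and 39.6 against 62.2, 100.4 and 152, and rose by 0.95 ± 0.17 (adjusted p = 0.0100), or 0.80 within the cluster (adjusted p = 0.0398). Without unirradiated array 1 its adjusted p was 0.0575.

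**Figure D2:**
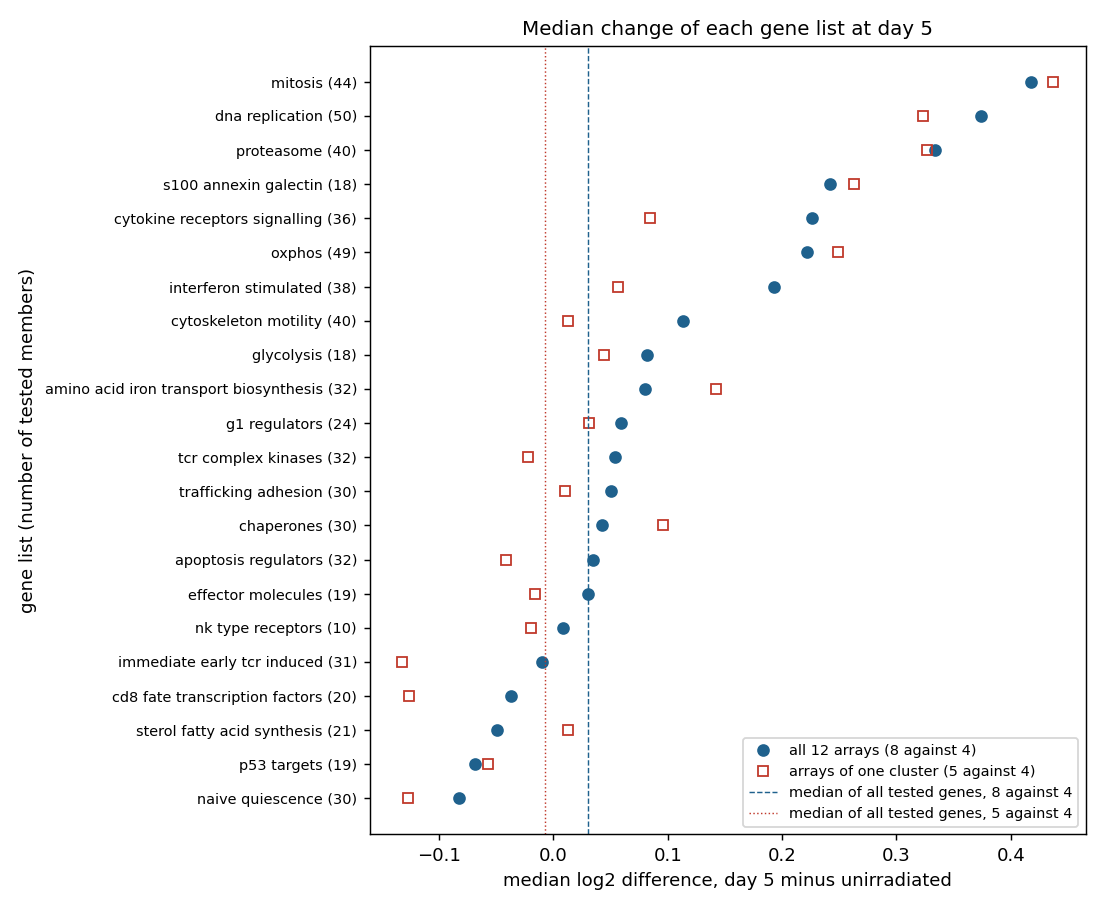
Median log2 difference (day 5 minus unirradiated) of the tested members of 22 gene lists, with filled circles for 8 against 4 arrays, open squares for 5 against 4 arrays of one cluster, and lines for all 6409 genes. Mitosis (0.42 and 0.44), DNA replication (0.37 and 0.32) and the proteasome (0.33 and 0.33) have the highest medians in both.

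Calcium-binding S100 proteins, annexins and galectins hold the largest rise of the comparison. Of 18 tested members, 4 were called, all higher and all in both fits, and 14 had higher values, with a median of 0.24. S100a6 had 50.6, 80.8, 32.9 and 63.5 in unirradiated hosts and 189, 529 and 673 at day 5. No array overlapped, and the lowest day-5 array, array 2, was still more than double the highest unirradiated one. The mean signal was 507 ± 159.9 (SD, n = 8) against 56.9 ± 20.3 (n = 4), a ratio of 8.90, and the log2 difference was 2.80 ± 0.27 (adjusted p = 1.19e-05), or 3.03 within the cluster (adjusted p = 2.12e-05). Lgals1, the gene of galectin 1, a secreted sugar-binding protein, had 122, 332, 138 and 135 against 477, 697 and 1903, the highest values being those of day-5 arrays 1 and 3. It rose by 2.12 ± 0.48 (adjusted p = 0.0417), or 1.72 within the cluster (adjusted p = 0.00924). Anxa2, the membrane-binding annexin A2, had 168, 212, 125 and 139 against 242, 346 and 514, and rose by 1.00 ± 0.22 (adjusted p = 0.0409), or 0.93 within the cluster (adjusted p = 0.0336). S100a4 had 48.9, 45.3, 58.9 and 49.1 against 66.6, 86.0 and 151, and rose by 0.67 ± 0.14 (adjusted p = 0.0348), or 0.59 within the cluster (adjusted p = 0.0181). Without unirradiated array 4 the adjusted p reached 0.188 for Lgals1, 0.192 for Anxa2 and 0.161 for S100a4, while the highest for S100a6 without any 1 array was 0.000186.

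Effector genes of cytotoxic T cells gave no rise past the threshold in either fit. Of 19 tested, 10 were higher, the median was 0.03, and the protease gene Ctsl fell by 0.45 (adjusted p = 0.0235), from 42.3 to 49.96 down to 21.8 to 42.1. Gzmb, the gene of granzyme B, stood at 426 and 423 in day-5 arrays 3 and 4, at 66.6 to 95.3 in the other 6, and at 65.5 to 96.2 in unirradiated hosts (difference 0.72, adjusted p = 0.405). Gzma, Prf1, Ccl5 and Fasl differed by 0.21, -0.07, 0.23 and -0.02, with adjusted p between 0.521 and 0.929. Ifng, the interferon gamma gene, lay under the filter, as did Cd44, Il2ra and Klrg1. Of 10 NK-type receptor genes, Klra3, a Ly49 family receptor, was called, with 18.5 to 25.9 against 28.4 to 49.7 (0.45 ± 0.10, adjusted p = 0.0486). All unirradiated values of Klra3 lie under the filter level and the day-5 values near it. The probe set belongs to those that can bind related Ly49 transcripts. With single arrays left out, 11 fits did not call Klra3 (adjusted p up to 0.184, without unirradiated array 4). Klrd1, the CD94 gene, differed by -0.26 (adjusted p = 0.582).

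Genes of migration and adhesion changed in both directions, 2 higher and 3 lower of 30, with a median of 0.05. Cxcr3, the receptor for interferon-induced chemokines, had 140.3, 151, 159 and 191 in unirradiated hosts and 348, 586 and 789.98 at day 5. The groups did not overlap, and within day 5 arrays 1, 4 and 5 were the lowest and arrays 2 and 3 the highest. It rose by 1.66 ± 0.20 (adjusted p = 0.000423), or 1.601 within the cluster (adjusted p = 0.00232). Ly6e, a surface protein gene induced by interferon, had 3351, 2676, 2615 and 2762 against 4125, 4635 and 6915, and rose by 0.79 ± 0.14 (adjusted p = 0.0115), or 0.66 within the cluster (adjusted p = 0.0226). A much dimmer Ly6e probe set gave -0.04 (adjusted p = 0.927). Cd9, a tetraspanin, had 112, 117, 98.3 and 118 against 36.6, 57.8 and 68.0, and fell by 0.88 ± 0.12 (adjusted p = 0.00127), or 0.79 within the cluster (adjusted p = 0.00438). Itgae, the CD103 chain that holds T cells to epithelium, had 58.3, 76.5, 72.0 and 74.0 against 34.2, 41.6 and 69.1. Day-5 array 3 overlapped the unirradiated range. It fell by 0.52 ± 0.11 (adjusted p = 0.0348), or 0.65 within the cluster, where no array overlapped (adjusted p = 0.00420). Itgav, the integrin alpha V chain, fell by 0.63 (adjusted p = 0.0348) and had an adjusted p of 0.0844 within the cluster. Without unirradiated array 4 the adjusted p was 0.161 for Itgae and 0.184 for Itgav, and Ly6e reached 0.0612 without unirradiated array 3.

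Among other surface proteins, H2-Q5, a class I molecule outside the classical set, had 91.2, 82.8, 66.5 and 73.6 against 133, 164 and 435, with the highest values in day-5 arrays 1 to 3. It rose by 1.14 ± 0.25 (adjusted p = 0.0348), or 0.78 within the cluster (adjusted p = 0.00681), and its probe set can bind other class I transcripts. Dpp4, the protease CD26, had 90.5 to 99.9 against 56.3 to 70.8 and fell by 0.48 ± 0.08 (adjusted p = 0.0100). P2rx4, an ATP-gated channel, fell by 0.69 ± 0.14 (adjusted p = 0.0269), from 68.6 to 99.4 down to 33.3 to 61.0. Slc12a2, the sodium-potassium-chloride cotransporter, fell by 1.02 ± 0.24 (adjusted p = 0.0486), with 104 to 140.1 against values up to 73.0. Within the cluster Dpp4, P2rx4 and Slc12a2 fell by 0.46, 0.58 and 0.74 (adjusted p = 0.00677, 0.0255 and 0.00415). With 1 array left out, 11 of the 12 fits did not call Slc12a2 (adjusted p up to 0.206, without unirradiated array 4).

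**Figure D3:**
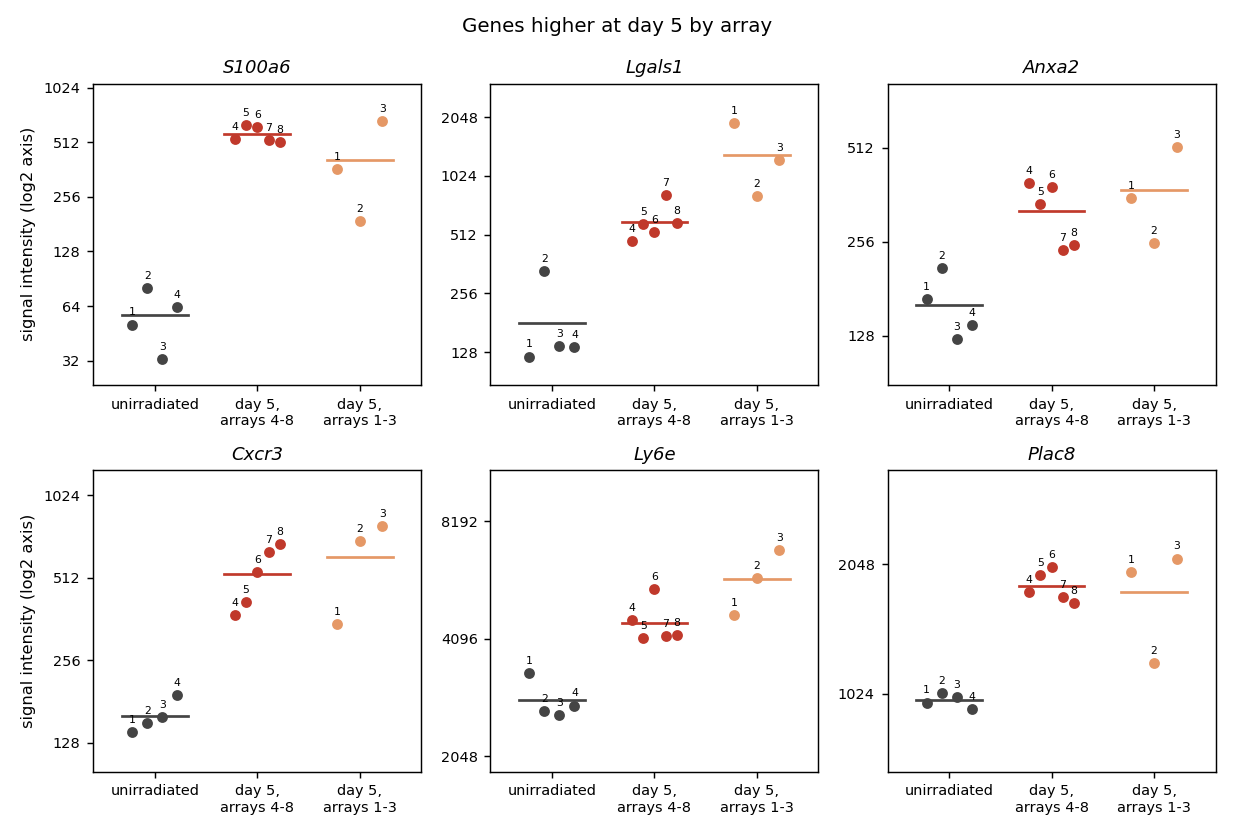
Signal intensity (log2 axis) of 6 genes higher at day 5 in each array, with array numbers and a line at the mean of unirradiated hosts (n = 4), day-5 arrays 4 to 8 (n = 5) and day-5 arrays 1 to 3 (n = 3). Every day-5 array lies above every unirradiated array in all 6 panels, closest in Anxa2, where day-5 array 7 had 242 and unirradiated array 2 had 212.

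Naive T cells depend on interleukin 7 and keep a set of quiescence genes on. Of 30 such genes, 12 were higher, the median was -0.08 and 1 was called, Il7r. Its signals were 1589, 1511, 1632 and 2369 in unirradiated hosts and 561, 754 and 1020.3 at day 5, without overlap. The fall was by 1.17 ± 0.25 (adjusted p = 0.0348), or by 1.03 within the cluster (adjusted p = 0.0285), with an adjusted p of 0.188 when unirradiated array 4, the highest, was left out. Within the cluster, 6 of the 30 were higher, the median was -0.13, and Btg1, an inhibitor of proliferation, fell by 0.63 (adjusted p = 0.0292). Ccr7, the lymph node homing receptor of naive cells, differed by 0.05 over all arrays and by -0.31 within the cluster (adjusted p = 0.937 and 0.402). Of 36 genes of cytokine receptors and their signalling, Il7r alone was called over all arrays. Socs2, a feedback inhibitor induced by cytokines, rose within the cluster by 0.50 (adjusted p = 0.0188), and in day-5 arrays 1 to 3 had 26.3 to 31.7, inside or below the unirradiated range of 27.4 to 33.5. Il2rb differed by 0.11 (adjusted p = 0.712). Bcl2, the survival factor downstream of interleukin 7, had 479 to 912 in day-5 arrays 4 to 8, against 224 to 456 in unirradiated hosts and 192 to 423 in day-5 arrays 1 to 3. Its difference was 0.42 over all arrays (adjusted p = 0.606) and 0.89 within the cluster (adjusted p = 0.0889). A dimmer Bcl2 probe set split the other way. It had 286 to 301 in day-5 arrays 1 to 3, 186 to 246 in arrays 4 to 8 and 165 to 198 in unirradiated hosts. Its differences were 0.41 and 0.23 within the cluster (adjusted p = 0.223 and 0.353). Another dimmer probe set gave 0.59 and 0.71 within the cluster (adjusted p = 0.209 and 0.0526).

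Egr1 and Egr2 encode factors that T cell receptor signals switch on within minutes to hours. Of 31 immediate early and receptor-induced genes, these 2 were called, both lower, with a median of -0.01 for the list. Egr1 had 593, 781, 716 and 761 in unirradiated hosts and 112, 227 and 406 at day 5. The groups were well apart, and day-5 arrays 1 to 3 were the lowest, at 112 to 121. It fell by 1.64 ± 0.32 (adjusted p = 0.0223), or 1.15 within the cluster (adjusted p = 0.0205), and 0.101 was its adjusted p without unirradiated array 4. Egr2 fell by 0.62 ± 0.14 (adjusted p = 0.0455), from 54.8 to 109.6 down to 32.4 to 44.3, and no fit with 1 array left out called it (adjusted p up to 0.154, without unirradiated array 2). Within the cluster, 5 of the 31 were higher and the median was -0.13. Dusp6, a phosphatase that limits ERK, fell there by 0.47 (adjusted p = 0.0434). Fos, by contrast, had 274, 907 and 146 in day-5 arrays 1 to 3 and 14.8 to 28.3 in arrays 4 to 8, on either side of the unirradiated 31.2 to 95.0. Its difference was 0.26 over all arrays (adjusted p = 0.879) and -0.99 within the cluster (adjusted p = 0.0562). Of 32 genes of the T cell receptor complex and its kinases, none was called in either fit. Among them 2 and 3 had an unadjusted p under 0.05, and the medians were 0.05 and -0.02. Counts by unadjusted p, here and below, were not taken over all tested genes, so they add no support.

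Nrip1, Zbtb20, Bcl6 and Cry1, each a repressor of transcription, fell at day 5. Nrip1, a corepressor of nuclear receptors, had 232, 247, 253 and 311 against 63.4, 94.9 and 147, and fell by 1.25 ± 0.18 (adjusted p = 0.00152), or 1.02 within the cluster (adjusted p = 0.00681). Zbtb20, a zinc finger repressor, had 109.98, 138, 133 and 143 against 32.6, 46.2 and 75.9, and fell by 1.19 ± 0.22 (adjusted p = 0.0127). Bcl6, a zinc finger repressor linked to memory CD8 T cells, was the 1 member called of 20 factors of CD8 T cell fate, which had a median of -0.04. It had 49.1, 75.8, 40.8 and 57.9 against 19.5, 25.1 and 40.0, and fell by 0.74 ± 0.13 (adjusted p = 0.0100), though the day-5 signals lay near the filter level. Cry1, a repressor of the circadian clock, had 549.8, 566, 621 and 683 against 172, 327 and 393, with day-5 arrays 1 to 3 the lowest, and fell by 1.04 ± 0.23 (adjusted p = 0.0370). Eomes, a T-box factor of memory cells, differed by 0.05 (adjusted p = 0.908). Within the cluster Zbtb20, Bcl6 and Cry1 fell by 1.04, 0.72 and 0.73 (adjusted p = 0.00470, 0.0487 and 0.00817). Without unirradiated array 4 the adjusted p was 0.0662 for Zbtb20, 0.0571 for Bcl6 and 0.184 for Cry1.

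The fall with the lowest p was that of Cnn3, which encodes calponin 3, an actin-binding protein. It had 155, 187, 116 and 121 in unirradiated hosts and 20.3, 29.3 and 45.5 at day 5, far apart and uniformly low. The difference was -1.79 ± 0.13 (adjusted p = 4.22e-07), and -1.70 within the cluster (adjusted p = 0.000406). Rflnb, refilin B, which organises actin through filamin, had 1145, 1355, 1277 and 1371 against 398, 592 and 668, and fell by 1.21 ± 0.17 (adjusted p = 0.00158), or 1.04 within the cluster (adjusted p = 0.000973). These were the 2 called of 40 cytoskeleton genes, with a median of 0.11. Tuba1a, an alpha tubulin, fell within the cluster by 0.79 (adjusted p = 0.0449), while a dimmer probe set given the same symbol, which can bind related tubulins, read 0.30 there (adjusted p = 0.385).

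**Figure D4:**
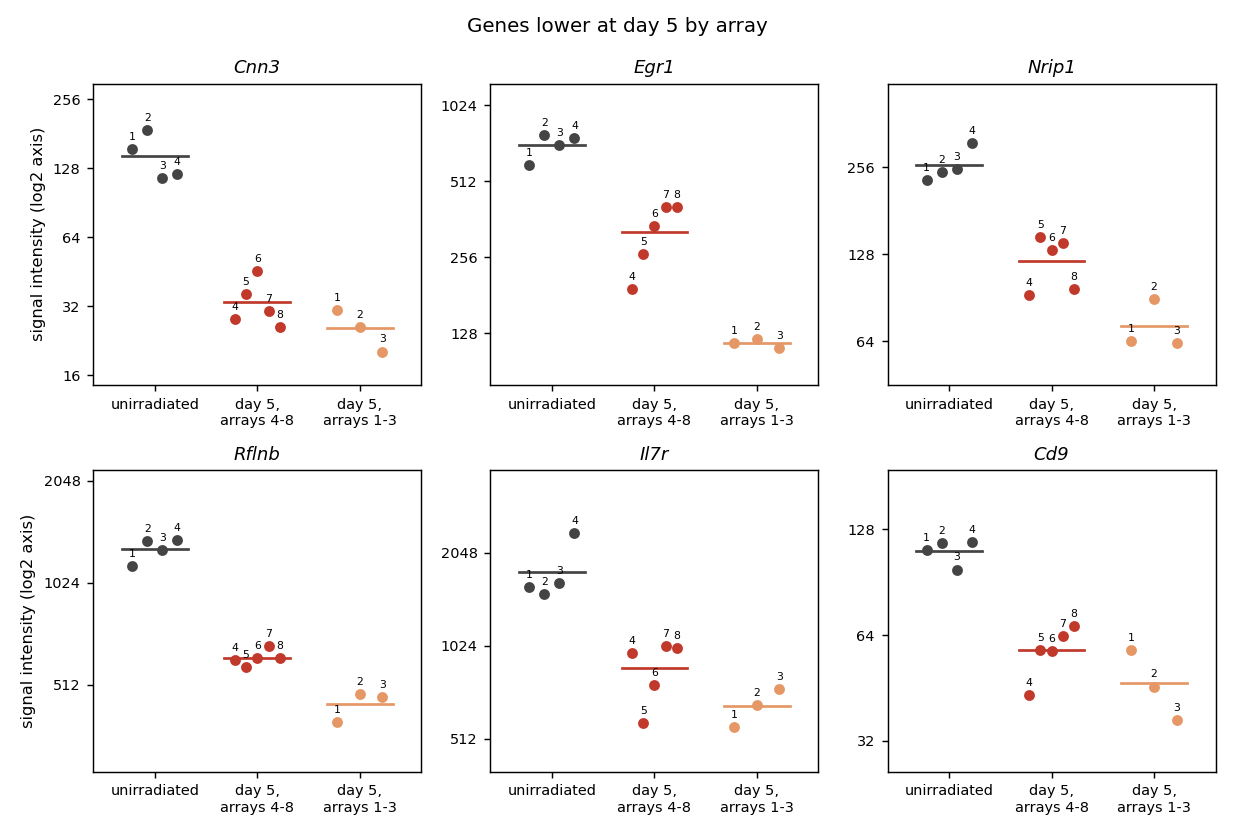
Signal intensity (log2 axis) of 6 genes lower at day 5 in each array, with array numbers and a line at the mean of unirradiated hosts (n = 4), day-5 arrays 4 to 8 (n = 5) and day-5 arrays 1 to 3 (n = 3). All 6 genes are lower in every day-5 array than in any unirradiated one, and Egr1 is lowest in arrays 1 to 3, at 112 to 121.

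Among metabolic genes, 1 of 18 in glycolysis was called. Ldha, lactate dehydrogenase A, had 1329.6, 1664, 1449 and 1440.4 in unirradiated hosts and 2003, 2328 and 2683 at day 5, with little spread, and rose by 0.66 ± 0.12 (adjusted p = 0.0100), or 0.72 within the cluster (adjusted p = 0.00751). Pkm, pyruvate kinase, rose within the cluster by 0.53 (adjusted p = 0.0434). Gpd2, the mitochondrial glycerol phosphate dehydrogenase, fell by 0.89 ± 0.16 (adjusted p = 0.0100), with 149 to 212 against 63.4 to 132. Acot7, a thioesterase of long-chain acyl-CoA, had 47.8, 64.8, 49.1 and 47.4 against 80.5, 113 and 175, and rose by 0.95 ± 0.20 (adjusted p = 0.0274). Abcd3, a peroxisomal fatty acid transporter, fell by 0.68 ± 0.15 (adjusted p = 0.0348). None of the 21 genes of sterol and fatty acid synthesis was called in either fit, with 1 and 3 at an unadjusted p under 0.05. Within the cluster Acot7 rose by 0.76 and Gpd2 and Abcd3 fell by 0.70 and 0.54 (adjusted p = 0.0128, 0.0228 and 0.0442). Without unirradiated array 4 the adjusted p was 0.146 for Acot7, 0.188 for Abcd3 and 0.0571 for Gpd2, and without array 1 it was 0.0585 for Ldha.

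The lists of oxidative phosphorylation and of the proteasome had raised medians with few calls or none. Of 49 genes of oxidative phosphorylation, 38 were higher with a median of 0.22, and none was called over all arrays, 7 having an unadjusted p under 0.05. Within the cluster 40 were higher, and Ndufa9, Sdhc and Uqcrc1, subunits of complexes I, II and III, were called (0.58, 0.52 and 0.56). Of 40 proteasome genes, 31 were higher with a median of 0.33, and 35 were higher within the cluster with the same median. None was called in either fit, while 17 and 19 had an unadjusted p under 0.05. The share of all genes under that unadjusted p was not taken, so these counts add no support. Phb2, a prohibitin of the inner mitochondrial membrane, had 101, 126, 66.6 and 83.0 against 136, 197 and 401 and rose by 1.10 ± 0.25 (adjusted p = 0.0455). Mrpl4, a mitochondrial ribosomal protein, had 67.2, 77.6, 61.4 and 78.3 against 98.2, 165 and 245 and rose by 1.06 ± 0.22 (adjusted p = 0.0348). Both were highest in day-5 arrays 1 to 3, where the B cell sum was also high, and within the cluster they rose by 0.80 and 0.79 (adjusted p = 0.0321 and 0.0185). In the list of amino acid and iron transport and biosynthesis, Fbl, a methyltransferase of ribosomal RNA, and Kpna2, a nuclear import receptor, rose within the cluster by 0.83 and 1.10 (adjusted p = 0.0171 and 0.0188), and the median of its 32 members was 0.08 over all arrays and 0.14 within. Of 30 chaperones, Cct8, a subunit of the folding complex for actin and tubulin, was called within the cluster (0.79, adjusted p = 0.0141), while day-5 arrays 1 to 3 had 127 to 235 against the unirradiated 251 to 319.9.

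The lists of the interferon response, of p53 targets and of apoptosis gave few calls. Of 38 interferon-stimulated genes, 22 were higher, the median was 0.19 and Ly6e alone was called, in both fits. Of 19 targets of p53, the factor activated by DNA damage, 5 were higher with a median of -0.07, and none was called, 4 having an unadjusted p under 0.05. Within the cluster, Ephx1, epoxide hydrolase 1, fell by 0.59 (adjusted p = 0.0168), with 95.4 to 119 in day-5 arrays 4 to 8 against 153 to 199.6. Of 32 regulators of apoptosis none was called in either fit, 6 and 5 having an unadjusted p under 0.05, and the medians were 0.04 and -0.04. A call missed here does not show that a gene was equal in the 2 hosts.

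Of the calls outside the lists, Drc1, a protein of the dynein regulatory complex of motile cilia, had the largest rise. It had 24.4, 23.3, 19.99 and 19.8 in unirradiated hosts, under the filter level, and 44.4, 134 and 215 at day 5. The difference was 1.85 ± 0.24 (adjusted p = 0.000898), or 2.18 within the cluster (adjusted p = 0.000136), while another probe set of Drc1 gave 0.12 (adjusted p = 0.476). Plac8, a small cysteine-rich protein of leukocytes, had 979, 1031, 1007 and 947 against 1211, 1848 and 2109, and rose by 0.83 ± 0.14 (adjusted p = 0.0100). Map3k8, a kinase upstream of ERK, rose by 0.69 ± 0.11 (adjusted p = 0.00683), from 36.6 to 55.6 up to 72.7 to 102. Slpi, an inhibitor of serine proteases, was called by 1 of its 4 tested probe sets (0.47, adjusted p = 0.0447), while the other 3, the brightest among them, gave 0.21, -0.04 and 0.02 (adjusted p = 0.470, 0.903 and 0.908). F2rl3, a thrombin receptor, rose by 0.32 (adjusted p = 0.0395) and had an adjusted p of 0.0511 within the cluster. Of the 12 fits with 1 array left out, 10 did not call Slpi and 11 did not call F2rl3, with adjusted p up to 0.192 and 0.181 (without unirradiated arrays 4 and 1). Rev3l, the catalytic subunit of a polymerase that copies past damaged bases, had 434, 482, 570.3 and 623 against 161, 272 and 330.3, and fell by 1.03 ± 0.22 (adjusted p = 0.0360). Frmd6 and Ttc3 fell by 0.47 and 0.55 (adjusted p = 0.00158 and 0.0100), without overlap. Within the cluster Plac8 and Map3k8 rose by 0.86 and 0.62 and Rev3l fell by 0.79 (adjusted p = 0.00304, 0.00924 and 0.0139). Without unirradiated array 4 the adjusted p was 0.184 for Rev3l and 0.0571 for Plac8. Bbs9 and Pdlim1 were the other genes of this kind that rose, and Nr2c1, Rgcc and Mfhas1 the others that fell. Ovgp1, Basp1 and Rbmx were called lower only by a probe set that is not the brightest of the gene. The brightest was not called in any of them. The groups overlapped in Rgcc and Mfhas1. Within the cluster the adjusted p was 0.0606 for Bbs9 and 0.183 for Mfhas1, and 8 and 10 of the 12 fits with 1 array left out did not call them (adjusted p up to 0.143, without unirradiated array 2, and 0.212, without unirradiated array 4).

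Cells sorted from irradiated hosts at day 40 (n = 4) show which of these levels were also found later. Their values share the unirradiated arrays as reference, so the levels are given side by side, and the test is of day 40 minus day 5 in the same fit, which called 109 probe sets, or 1.25%. Of the 69, 19 were among them. The test held no term for the array cluster and was not run within the cluster. Day-40 arrays could differ widely from each other. Lgals1 had 1487 and 1291 in day-40 arrays 1 and 2, but 233 and 216 in arrays 3 and 4. Top2a had 31.8 to 37.6 at day 40, within or just below the unirradiated 32.03 to 47.1, and was lower than at day 5 by a log2 difference of -1.91 (adjusted p = 0.0194). Cdk1, Ccnb2, Stmn1 and Tcf19 were likewise lower than at day 5 (-1.53, -0.88, -2.30 and -0.79, adjusted p between 0.00607 and 0.0354). Plac8 stood at 792 to 1102 at day 40, beside 947 to 1031 in unirradiated hosts (difference from day 5 -0.87, adjusted p = 0.00464). Il7r had 1344 to 3022, across the unirradiated 1511 to 2369, and was higher than at day 5 by 1.47 (adjusted p = 0.00545).

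Cxcr3 and Itgae were further from the unirradiated level at day 40, and several other genes had no call between the days. Cxcr3 had 843 to 1170.1 at day 40, above every day-5 array, and was higher than at day 5 by 0.90 (adjusted p = 0.0341). Itgae had 23.2 to 27.7, below every day-5 array, with a difference of -0.53 (adjusted p = 0.0196). S100a6 (414 to 616), Cnn3 (22.03 to 29.4), Nrip1 (74.2 to 102), Rflnb (417 to 759.8) and Egr1 (92.9 to 211) had values at day 40 within or close to the day-5 range, and their adjusted p for day 40 minus day 5 lay between 0.576 and 0.967. Ldha and S100a4 were lower at day 40 than at day 5 by log2 differences of -0.53 and -0.60 (adjusted p = 0.0282 and 0.0442).

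**Figure D5:**
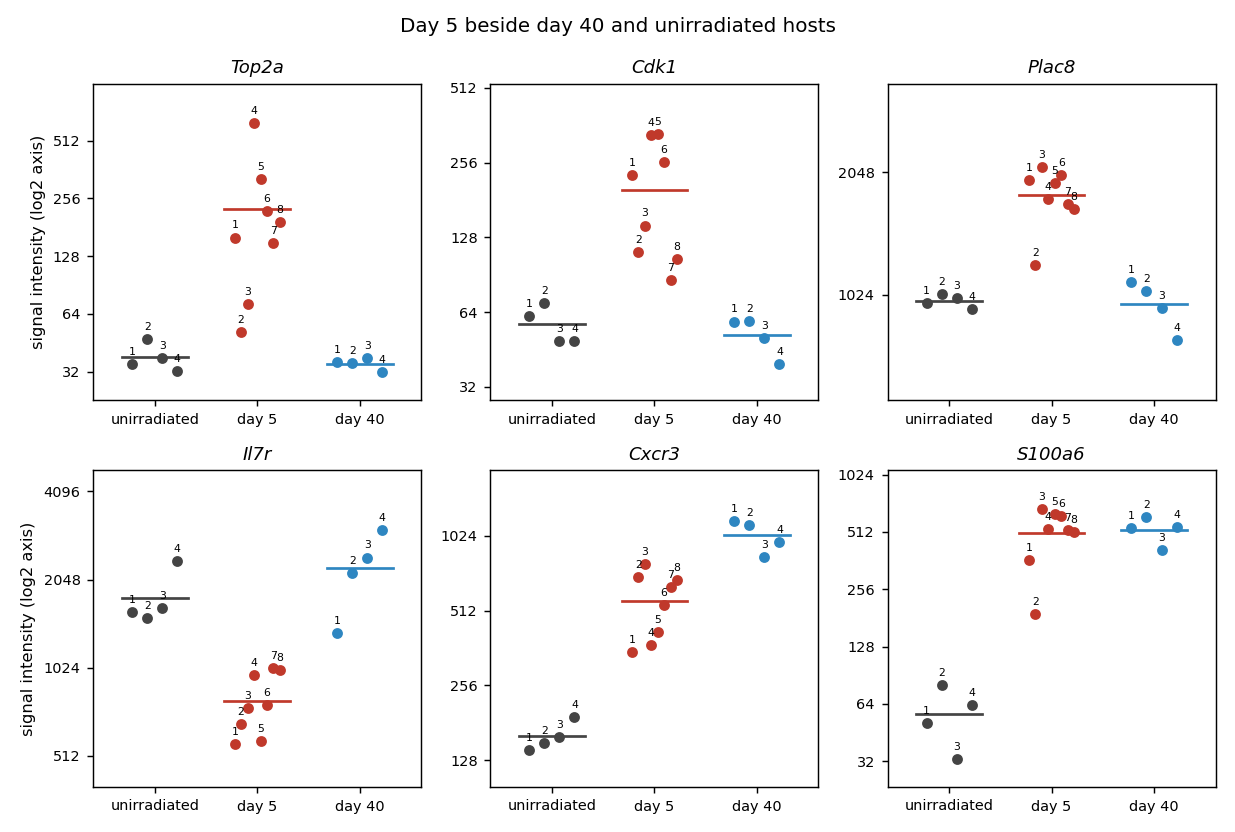
Signal intensity (log2 axis) of 6 genes in unirradiated hosts (n = 4), day-5 samples (n = 8) and day-40 samples (n = 4), with array numbers and a line at each mean. Top2a, Cdk1 and Plac8 at day 40 are near the unirradiated level, Il7r at day 40 spans it, Cxcr3 is highest at day 40, and S100a6 is high at both days.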

How the data were processed

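Oligonucleotide arrays measured messenger RNA in 19 samples of OT-I cells, and 12 of them enter the comparison. The deposited table gives 1 intensity per probe set and array, on a linear scale. The sources used here do not state how the authors made and scaled these intensities. Array medians of the 12 arrays were 49.6 to 53.7, so the intensities were used as deposited. The number of arrays limits the precision.

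The 66 control probe sets were left out, and 8695 of the 12422 others were tested, namely those with an all-array mean signal over 26.4 (the 30th percentile). A pseudocount of 16 was added before log2. A limma 3.58.1 model in R 4.3.3 (lmFit and eBayes with an intensity trend) held all 19 arrays with group as the only factor. Benjamini-Hochberg adjustment ran over the 8695 tested probe sets, with a call at an adjusted p under 0.05. Where a sentence prints an adjusted p, it comes from limma.

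Array clusters came from average linkage on 1 minus the Pearson correlation of log2 values. The fit within a cluster held 9 arrays, day-5 arrays 4 to 8 and the unirradiated hosts.

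Symbols came from the platform annotation, updated through Entrez identifiers to RefSeq (GRCm38.p6): 10833 probe sets had 1 symbol, 396 several and 1193 were not listed. A gene counted by its brightest probe set with 1 symbol. Of the called probe sets, 15 carry a suffix (f, s, r, i or g) that marks probes outside the standard design, some of which can bind related transcripts. Promoter sequences are RefSeq's, from the same build.

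Genes named were the 15 largest rises and 15 largest falls called without overlap, up to 5 called members of each of 22 pathway lists in either fit, and a panel of 28 genes. One gene of that panel is not reported here. Other called genes were named as called. The members, lists and rules were chosen with earlier results of these data known.

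Alternatives were another pseudocount (1 or 64), other filters, quantile normalization, no trend, only the 12 arrays, the array cluster as a term, the replicate number as a block, and single arrays left out. Groups share replicate numbers 1 to 4, but the deviations of same-numbered arrays from their group means correlated at only 0.00, -0.13, 0.23 and 0.23, so the numbers were not taken as pairs. The pipeline was tested on simulated data with independent noise and no array clusters, so that test does not cover the clusters found here.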

Additional observations from a re-analysis of the deposited data

Results flagged for a closer look

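Single arrays stood apart from their group by Dixon's criterion in 12 of 146 sets of values tested, one set being a gene in one group. Chance alone gives about 1 in 20. Unirradiated array 2 accounted for 6 of them. Its signal was 332 for Lgals1 (the other 3 arrays 122 to 138), 64.8 for Acot7 (47.4 to 49.1), 70.4 for Pclaf (39.2 to 41.0), 32.8 for Mki67 (15.6 to 17.6) and 73.2 for Myc (27.5 to 31.99), all high, and 579 for Fbl (752 to 771), low. Unirradiated array 1 was low in Eomes, at 126 (201 to 209). Among day-5 arrays, array 1 was low in Egr2 at 32.4 (39.8 to 44.3) and high in Btg1 at 855 (474 to 569.7). Day-5 array 2 was low in Plac8 at 1211 (1665 to 2109), and array 3 was high in Gzma at 118 (43.6 to 62.5) and Fasl at 39.3 (22.96 to 28.9).

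For 16 named genes the change at day 5 differed from that at day 40 by the test of day 40 minus day 5. The log2 differences were -1.91 for Top2a (adjusted p = 0.0194), -1.53 for Cdk1 (adjusted p = 0.0103), -0.88 for Ccnb2 (adjusted p = 0.0354), -0.79 for Tcf19 (adjusted p = 0.0229) and -0.87 for Plac8 (adjusted p = 0.00464). Il7r and Cxcr3 were higher at day 40 by 1.47 and 0.90 (adjusted p = 0.00545 and 0.0341). Against unirradiated hosts, Il7r stood at -1.17 at day 5 and 0.30 at day 40, and Cxcr3 at 1.66 and 2.56. Pclaf, Stmn1 and Mki67 were lower at day 40 than at day 5 by differences of -2.36, -2.30 and -1.79 (adjusted p = 0.0103, 0.00607 and 0.0221), and S100a4, Ldha and Itgae by differences of -0.60, -0.53 and -0.53 (adjusted p = 0.0442, 0.0282 and 0.0196). Fasl, Ccl5 and Prf1, none of them called at day 5 against unirradiated hosts, were higher at day 40 by 1.53, 2.62 and 0.86 (adjusted p = 6.25e-09, 0.00117 and 0.00157). Both contrasts share the unirradiated arrays, and neither holds a term for the array cluster.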

How the results depend on the processing

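The 69 calls became 71 with a pseudocount of 1, 55 with 64, 62 with no filter, 48 with the filter at the 50th percentile, 65 with quantile normalization, and 78 without an intensity trend. With day-5 arrays 1 to 3 left out and all other arrays in the fit, also chosen after seeing the data, it was 69 again, but the fits share 38 calls and it had 50 higher and 19 lower. The count was 40 with only the 12 arrays in the fit, 42 without day-5 arrays 1 and 2, 131 within the array cluster, and 140 with the array cluster as a term, which share 66 of the 69. It was 207 within the cluster with its day-40 arrays added and 362 within the cluster with 2 sub-blocks of arrays as a term, both chosen after seeing the data. The latter held all 69. With the replicate number as a block, which is no pairing by the check of deviations, 1707 were called. With 1 array left out the count ranged from 13 to 80. The balance of higher to lower moved from 36 and 33 to 20 and 35 with the pseudocount of 64 to 28 and 37 with quantile normalization, to 15 and 25 with only the 12 arrays, to 31 and 17 with the stricter filter, and to 87 and 53 with the cluster as a term. Of the named genes, 1 turned direction with a call: Fos, at -0.98 with the sub-blocks (adjusted p = 0.0375), against 0.26 over all arrays. The cause was not tested. Arrays have no count depth; levels near the filter of 26.4 signal units, such as those of Drc1, Mki67 and Top2a in unirradiated hosts, limit the size that can be given.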
